A study of Mus musculus with 6 samples.

Results

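Antigen presentation by MHC class II was followed in natural killer (NK) cells of 3 mouse tissues through 8 genes, which are H2-Ab1, H2-Aa, H2-Eb1, H2-DMa, H2-DMb1, Cd74, Cd83 and Ciita. All probes whose symbol in the array tables is one of these, or an older symbol that the RefSeq gene table gives for one of them, were taken as members. They are 12 probes, 6 under the current symbol and 6 under an older one, and 8 of the 31484 gene symbols of the array. H2-Ab1 had 3 probes, Cd74 and Ciita 2 each, and the other 5 genes 1 each. Of the 12 probes, 10 (7 genes) were detected on both arrays of at least 1 tissue and were tested, and the 2 Ciita probes were not.

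The series measured gene expression on Illumina mouse BeadChips in 6 samples of NK cells, 2 each from intestine (gut lamina propria), skin and spleen. All mice were 12-week-old male RAG-2-KO C57BL/6 animals, which lack T and B cells, so spleen, the tissue that intestine and skin are set against, carries the same deletion. Per the labels the cells were sorted as CD45+, CD3-, Nkp46+ and, as the labels spell it, NK11+. The labels do not say whether the 2 samples of a tissue came from different animals, so the p-values rest on a spread between samples that may be technical.

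MHC class II molecules are pairs of an alpha and a beta chain that show peptides from engulfed or endosomal protein to CD4+ T cells. They are assembled with the invariant chain, which Cd74 encodes, and loaded in late endosomes with the help of the H2-DM pair. Professional antigen-presenting cells (dendritic cells, B cells and macrophages) are their usual source, and there the coactivator Ciita switches the class II genes, Cd74 and H2-DM on together. Cd83 is a surface protein of mature dendritic cells and activated lymphocytes, where it is known to slow the removal of class II from the surface. Some innate lymphoid cells of the mouse intestine, in particular ILC3, also carry class II.

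In intestinal cells the genes of the class II chains and Cd83 were higher than in splenic cells and than in skin cells. Cd83 was 14.1-fold higher than in spleen, and the 3 probes of H2-Ab1 were 3.1- to 4.72-fold higher. H2-Eb1 was 2.52-fold and H2-Aa 1.91-fold higher. The peptide-loading genes H2-DMa and H2-DMb1 did not pass the test in any comparison, and Ciita was not detected on any array. In skin against spleen, Cd83 and 1 of the 3 H2-Ab1 probes passed.

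Signals below are the deposited background-subtracted bead intensities, in arbitrary units and given for replicates I and II in turn. Differences are log2 differences after an offset of 16 and quantile normalization, with the SE of limma, and the adjusted p is limma's after Benjamini-Hochberg over all 18583 tested probes, with a call at 0.05. The offset makes the fold change of a dim probe smaller than that of its signal. A probe counts as detected on an array where its deposited detection p is under 0.01. In sorted bulk samples, fewer cells with a transcript and less transcript per cell cannot be told apart.

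Between 15196 and 18530 of 46643 probes were detected per array, most of them on the spleen arrays. Ncr1, which encodes the NKp46 of the sort, was detected on all 6 arrays, and its log2 difference was -1.23 in intestine against spleen (adjusted p = 0.000473) and -0.53 in skin against spleen (adjusted p = 0.0615). Klrb1c, which encodes NK1.1, was detected on 6 arrays too and lower in intestine than in spleen (-1.03, adjusted p = 0.000334). Ptprc, which encodes CD45, was detected on 6 arrays by its brightest probe. This probe was lower than in spleen in intestine (-0.71, adjusted p = 0.00419) and in skin (-0.86, adjusted p = 0.00646). Its other probes had -0.14 (adjusted p = 0.415) and -0.60 (adjusted p = 0.0141) in intestine against spleen. In skin against spleen they had 0.17 and -0.02 and did not pass. Cd3e was detected on none. Rag2, the deleted gene, was detected on 4 arrays at signals of 0.341 to 13.2 over the 6, and whether its probe lies in the deleted part was not tested.

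H2-Ab1 encodes the beta chain of the class II molecule I-A. The file lists 1 probe under this symbol (probe 2) and 2 under Rmcs1, an older symbol of H2-Ab1 in the RefSeq table. Of these 2, probe 3 is described in the file as H2-Ab1 and probe 1 as response to metastatic cancers 1.

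Probe 1 of H2-Ab1 had signals of 369 and 285 in intestine, 116 and 106 in skin, and 81.1 and 104 in spleen. Both intestine arrays stood above all others, and both skin arrays above both spleen arrays. It was 2.0 ± 0.16 higher in intestine than in spleen on the log2 scale (adjusted p = 1.11e-05) and 1.51 ± 0.16 higher in intestine than in skin (adjusted p = 8.64e-05). Between skin and spleen the difference of 0.50 ± 0.16 did not pass (adjusted p = 0.0544).

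Probe 2 of H2-Ab1 had signals of 223 and 213 in intestine, 81.5 and 82.3 in skin, and 44.1 and 54 in spleen. The order of the tissues was the same as with probe 1, again without overlap. Its log2 difference was 2.24 ± 0.14 in intestine against spleen (adjusted p = 2.03e-06) and 1.40 ± 0.14 in intestine against skin (adjusted p = 4.94e-05). Skin was 0.84 ± 0.14 above spleen, a 1.79-fold difference (adjusted p = 0.00486). Without the first spleen array this last call was lost at 0.72 (adjusted p = 0.0754, the highest over its alternatives, the lowest being 0.00209).

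Probe 3 of H2-Ab1 had signals of 189 and 124 in intestine, 50.5 and 38.9 in skin, and 52.6 and 61.9 in spleen. The intestine arrays again stood above all others, while in the normalized values skin and spleen overlapped. Its log2 difference was 1.63 ± 0.19 in intestine against spleen (adjusted p = 0.000111) and 1.64 ± 0.19 in intestine against skin (adjusted p = 0.000135), and -0.01 ± 0.19 in skin against spleen (adjusted p = 0.982). The 3 probes of H2-Ab1 thus agreed on intestine and disagreed in skin against spleen, with differences of 0.50, 0.84 and -0.01.

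H2-Aa encodes the alpha chain of I-A. Its signals were 77.3 and 53.1 in intestine, 29.3 and 26.8 in skin, and 43.8 and 36 in spleen. After normalization skin and spleen overlapped, and both intestine arrays stood above them. H2-Aa was 0.93 ± 0.16 higher in intestine than in spleen (adjusted p = 0.00126) and 1.03 ± 0.16 higher than in skin (adjusted p = 0.00088), and its difference in skin against spleen was -0.10 ± 0.16 (adjusted p = 0.688).

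H2-Eb1 encodes the beta chain of the second class II molecule, I-E. Its signals were 102 and 85.9 in intestine, 33.3 and 34.1 in skin, and 40.2 and 43.3 in spleen. The intestine arrays stood above the others, and skin and spleen overlapped after normalization. H2-Eb1 was 1.33 ± 0.14 higher in intestine than in spleen (adjusted p = 4.89e-05) and 1.29 ± 0.14 higher than in skin (adjusted p = 7.49e-05), with 0.04 ± 0.14 in skin against spleen (adjusted p = 0.861). H2-Ea, whose product would pair with it, is known not to be expressed in C57BL/6 mice because of a deletion in its promoter. Its probe was detected on none of the 6 arrays, with signals of 1.56 and 4.07 in intestine, -2.58 and 4.42 in skin, and 1.32 and 1.91 in spleen.

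Class II promoters are known for an X box and a Y box that sit a fixed short distance apart, are bound by RFX and NF-Y, and recruit Ciita. The RefSeq promoter table (build GRCm38.p6) held H2-Aa, H2-Eb1, H2-DMa and H2-DMb1. Below are the 150 bases before the annotated start of those 3 that carry both boxes, all on chromosome 17, with the boxes in capitals, the X box core CTNGNAAC first and the Y box core TGATTGG after it. They are shown because the first 2 genes were higher in intestine and the third did not pass the test.

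H2-Aa, chr17:34287824-34287973, minus strand: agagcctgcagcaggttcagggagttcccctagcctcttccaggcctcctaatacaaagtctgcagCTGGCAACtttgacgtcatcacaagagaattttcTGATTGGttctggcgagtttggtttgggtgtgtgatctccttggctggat
H2-Eb1, chr17:34305717-34305866, plus strand: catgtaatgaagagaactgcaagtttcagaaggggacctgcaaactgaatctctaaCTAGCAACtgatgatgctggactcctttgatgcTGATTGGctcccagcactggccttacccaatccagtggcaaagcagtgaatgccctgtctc
H2-DMb1, chr17:34153041-34153190, plus strand: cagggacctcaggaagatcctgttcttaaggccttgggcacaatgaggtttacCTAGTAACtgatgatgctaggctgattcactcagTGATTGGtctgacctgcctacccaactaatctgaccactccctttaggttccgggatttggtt

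The X box core began 84 bases before the start of H2-Aa, 94 before that of H2-Eb1 and 97 before that of H2-DMb1. It was followed by the Y box core after 26, 25 and 26 bases. Both motifs were searched on both strands in all 32851 windows of the table, each 300 bases long. The X box core stood in 13.2% of them and the Y box core in 7.82%, and the motifs cannot overlap in the arrangement searched. An X box core followed on its strand by a Y box core within 40 bases stood in 31 windows, 0.0944% of all. These belonged to 28 genes, of which 4 are H2 genes, the 3 shown and H2-Ob. The motif letters were chosen with the class II promoters known, so the share describes the windows and tests nothing. These letters were not found in either window of H2-DMa.

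H2-DMa and H2-DMb1 encode the chains of H2-DM, which removes the invariant chain's last fragment from class II and lets peptide bind. H2-DMa had signals of 76.5 and 68.8 in intestine, 106 and 110 in skin, and 127 and 119 in spleen. Both intestine arrays were below all 4 others, and the differences of -0.22 ± 0.13 against spleen (adjusted p = 0.182) and -0.33 ± 0.13 against skin (adjusted p = 0.0777) did not pass. Between skin and spleen it was 0.11 ± 0.13 (adjusted p = 0.582). With the deposited scaling alone the log2 difference of H2-DMa in intestine against spleen was -0.65 (adjusted p = 0.00188, where its alternatives lay between 0.000592 and 0.498), or -0.39 relative to the median of all probes.

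H2-DMb1 had signals of 23.3 and 18.5 in intestine, 32.7 and 33.5 in skin, and 32.9 and 27.5 in spleen. Intestine and spleen overlapped after normalization, and skin stood above both. Its log2 difference was 0.00 ± 0.14 in intestine against spleen (adjusted p = 0.987), 0.31 ± 0.14 in skin against spleen (adjusted p = 0.134) and -0.31 ± 0.14 in intestine against skin (adjusted p = 0.122). In intestine against skin both H2-DM genes had negative differences that did not pass, where those of the class II chains were positive and passed. Whether H2-DM and the chains differ from each other in this was not tested.

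Cd74 encodes the invariant chain, which fills the peptide groove of new class II molecules and leads them to the endosome. The file lists both of its probes under the older symbol Ii. Probe 1 had signals of 233 and 161 in intestine, 120 and 116 in skin, and 165 and 188 in spleen. The deposited signals of intestine and spleen overlapped, and the normalized ones did not. It was 0.53 ± 0.17 higher in intestine than in spleen (adjusted p = 0.0252) and 0.79 ± 0.17 higher in intestine than in skin (adjusted p = 0.00457), with -0.26 ± 0.17 in skin against spleen (adjusted p = 0.279).

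The call of Cd74 against spleen depended on the normalization and on single arrays. With the deposited scaling alone the difference was 0.13 (adjusted p = 0.53, the highest over its alternatives, the lowest being 0.00435). The call was also lost without the first spleen array (0.45, adjusted p = 0.168), without the second (0.63, adjusted p = 0.0638), without the first intestine array (0.31, adjusted p = 0.115) and with no detection filter (adjusted p = 0.0551). Probe 2 of Cd74 was detected on the 2 spleen arrays alone. Its signals were 5.48 and -2.1 in intestine, 5.87 and 6.31 in skin, and 7.34 and 11.6 in spleen, and its difference of -0.51 ± 0.20 in intestine against spleen did not pass (adjusted p = 0.059).

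Ciita, the coactivator of the class II promoters, was present under its older symbol C2ta with 2 probes, neither well above background on any array. Probe 1 had signals of 4.89 and 3.99 in intestine, 3.02 and 4.97 in skin, and 1.87 and 2.16 in spleen. Probe 2 had 2.88 and 5.7 in intestine, -0.19 and 0.158 in skin, and 1.76 and 3.06 in spleen. No fold is given between values below detection, and transcripts under the arrays' detection limit would not be seen.

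**Figure D1:**
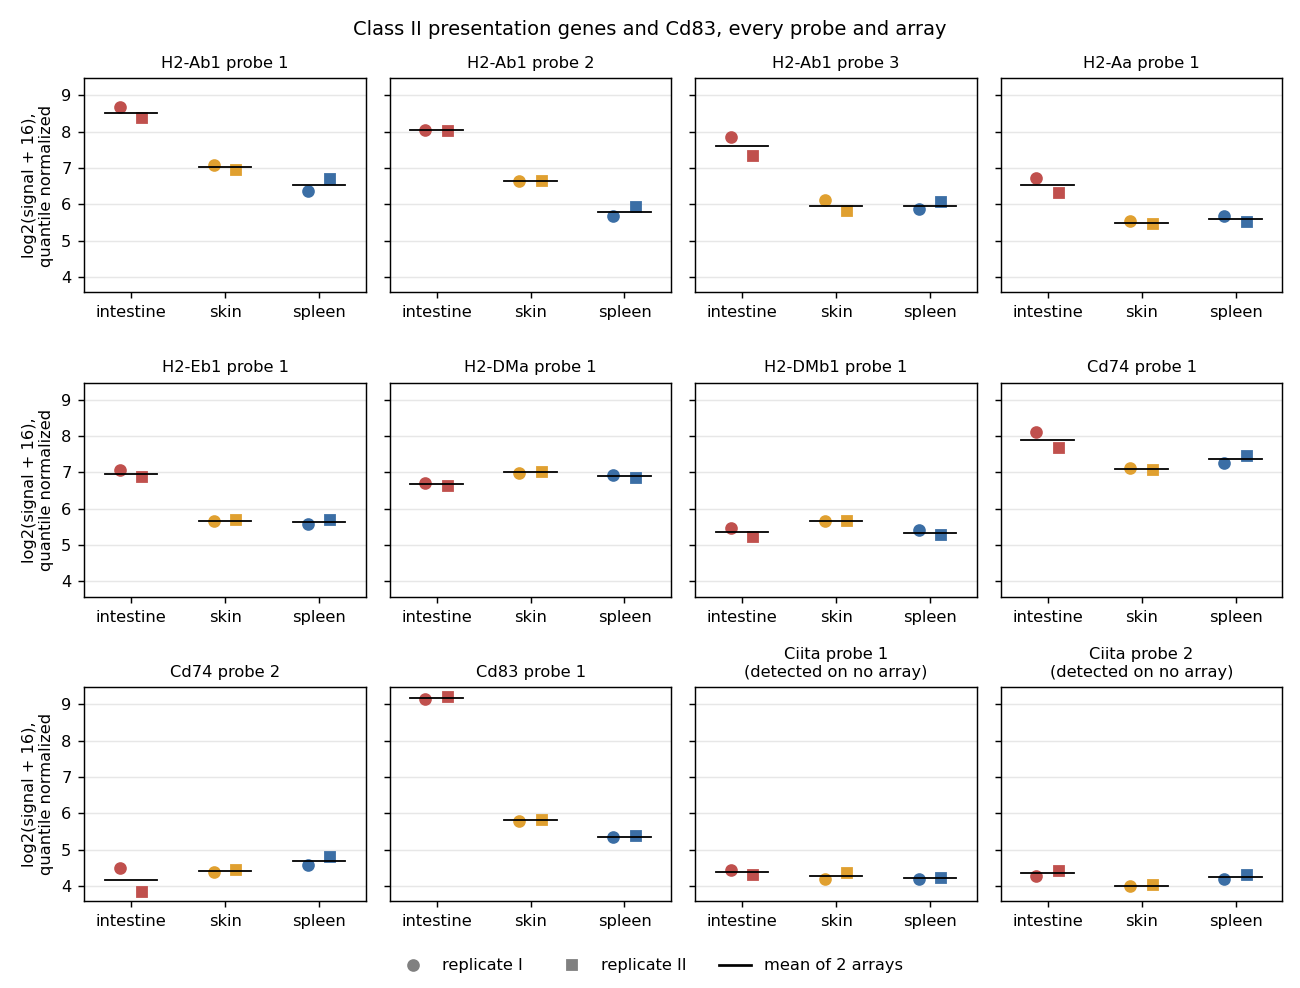
The normalized log2 signal of every member probe is plotted by tissue, with a circle for replicate I, a square for replicate II and a line for the mean of 2 arrays. Both intestine arrays lie above all others for Cd83, H2-Ab1, H2-Aa and H2-Eb1, the H2-DM genes lie within a narrow band, and both Ciita probes lie near the floor on all 6 arrays.

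Cd83 had signals of 537 and 530 in intestine, 37.5 and 39.8 in skin, and 30.4 and 30.2 in spleen. The arrays of a tissue lay close together and no tissues overlapped. Cd83 was 3.82 ± 0.13 higher in intestine than in spleen on the log2 scale (adjusted p = 1.47e-07), a difference that ranked 26 from the highest among 18583 probes. Against skin it was 3.37 ± 0.13 higher (adjusted p = 2.95e-07), a 10.3-fold difference that ranked 38 from the highest.

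Over all alternatives the difference of Cd83 between intestine and spleen was 2.74 to 4.12, and 3.04 to 3.57 between intestine and skin. Within slides it was 3.80 and 3.84 against spleen. Cd83 was also 0.45 ± 0.13 higher in skin than in spleen (adjusted p = 0.0344), a 1.37-fold difference. This call was lost without the first spleen array (adjusted p = 0.219), the second spleen array (0.206), the first skin array (0.101) or the second skin array (0.0999), with the deposited scaling alone (0.188) and with no detection filter (0.0961), and on signals before scaling its sign turned. The adjusted p ranged between 0.0183 and 0.219 over its alternatives.

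The tissues thus ordered as intestine, skin, spleen for Cd83 and for H2-Ab1 probes 1 and 2, where the test did not separate skin and spleen for H2-Ab1 probe 1. For H2-Aa, H2-Eb1 and H2-Ab1 probe 3, intestine was highest and skin and spleen overlapped. For Cd74 probe 1 intestine was highest too, and skin lay below spleen without overlap but did not pass the test. For H2-DMa and H2-DMb1 no pair of tissues passed the test, though most pairs did not overlap.

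By probe, 7 of 10 members were called in intestine against spleen, all of them higher, where 47.5% of all probes were called and 19.9% were called higher. For skin against spleen, 2 of 10 were called, both higher, where 22.9% of all probes were called and 10.8% of all probes were called higher. In intestine against skin 7 of 10 were called, all higher, against 36.2% and 16.7%. The median difference of the 10 probes was 1.13, 0.07 and 1.16 in these comparisons, beside -0.07, -0.04 and -0.05 over all probes. By gene, with the brightest probe for each, 5 of 7, 1 of 7 and 5 of 7 were called, all of them higher, beside 48.2%, 23.1% and 38.1% of 13455 genes called, with 20.5%, 12.3% and 16% called higher and 27.8%, 10.8% and 22.1% called lower. Both comparisons of intestine use the same 2 intestine arrays, and those against spleen the same 2 spleen arrays. The share of calls over all probes that were higher also depended on the scaling. In intestine against spleen it was 41.9%, or 24.7% with the deposited scaling, 58.8% with median scaling and 4.37% on signals before scaling. The share was 47% in skin against spleen, or 30.7%, 67.4% and 0.129% in the same settings, and it was 46% in intestine against skin, or 33.6%, 47.7% and 67.2%.

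**Figure D2:**
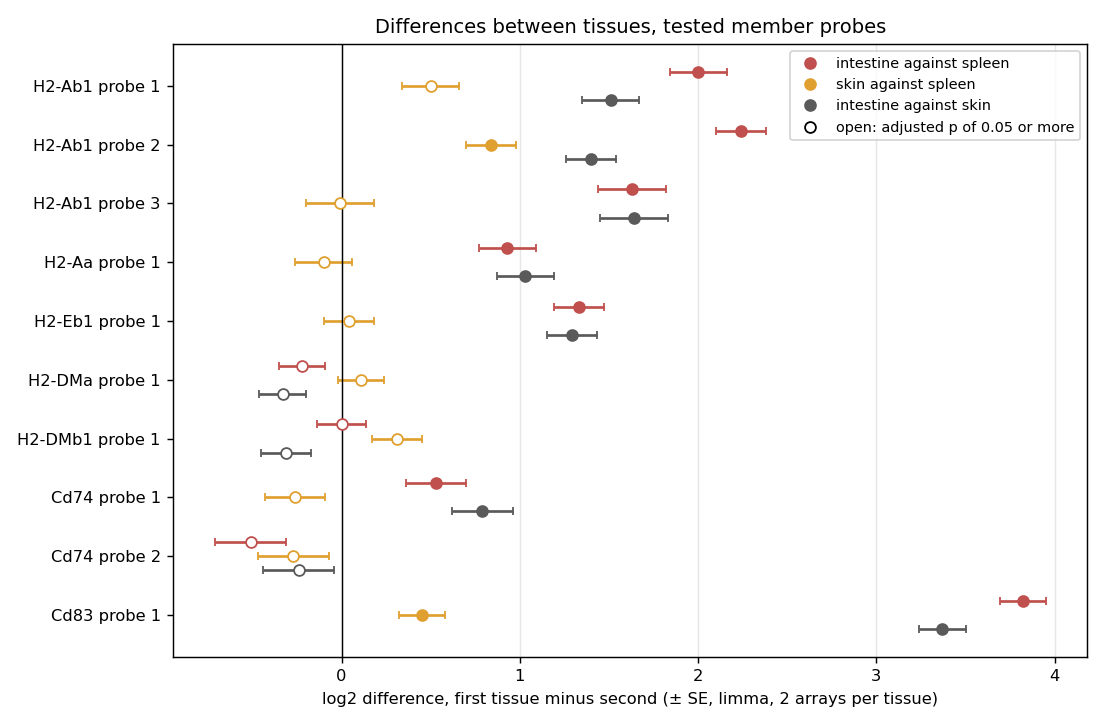
Log2 differences between tissues with their SE (limma, 2 arrays per tissue) are drawn for the 10 tested member probes, filled where the adjusted p is under 0.05. The intestine comparisons of Cd83 lie at 3.82 and 3.37, those of the 3 H2-Ab1 probes between 1.40 and 2.24, and the skin against spleen differences between -0.27 and 0.84.

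The slide read from the array names holds replicate I of every tissue on slide 1 and replicate II on slide 2. Within slides 1 and 2 the differences in intestine against spleen were 2.31 and 1.69 for H2-Ab1 probe 1, 1.06 and 0.80 for H2-Aa, 1.48 and 1.18 for H2-Eb1, and 0.85 and 0.22 for Cd74 probe 1. The sign was the same on both slides for each of these, while that of Cd74 was close to 0 on slide 2.

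Along chromosome 17 the members of the class II region are neighbours of other genes, which were chosen after their values were seen. Their order in the RefSeq table (GRCm38.p6) is H2-Oa, Brd2, H2-DMa, H2-DMb2, H2-DMb1, Psmb9, Tap1, Psmb8, Tap2, H2-Ob, H2-Ab1, H2-Aa and H2-Eb1. In intestine against spleen the last 3 of these 13, read by their brightest probes, were all higher, H2-Ob before them did not pass, and of the rest only Brd2 was higher. Brd2, a chromatin reader, had a log2 difference of 0.97 ± 0.17 (adjusted p = 0.00114). Psmb9, an immunoproteasome subunit of the class I pathway, was lower with -0.82 ± 0.13 (adjusted p = 0.000808). The class I peptide transporter genes Tap1 and Tap2 had differences of -0.12 and -0.14 and did not pass.

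**Figure D3:**
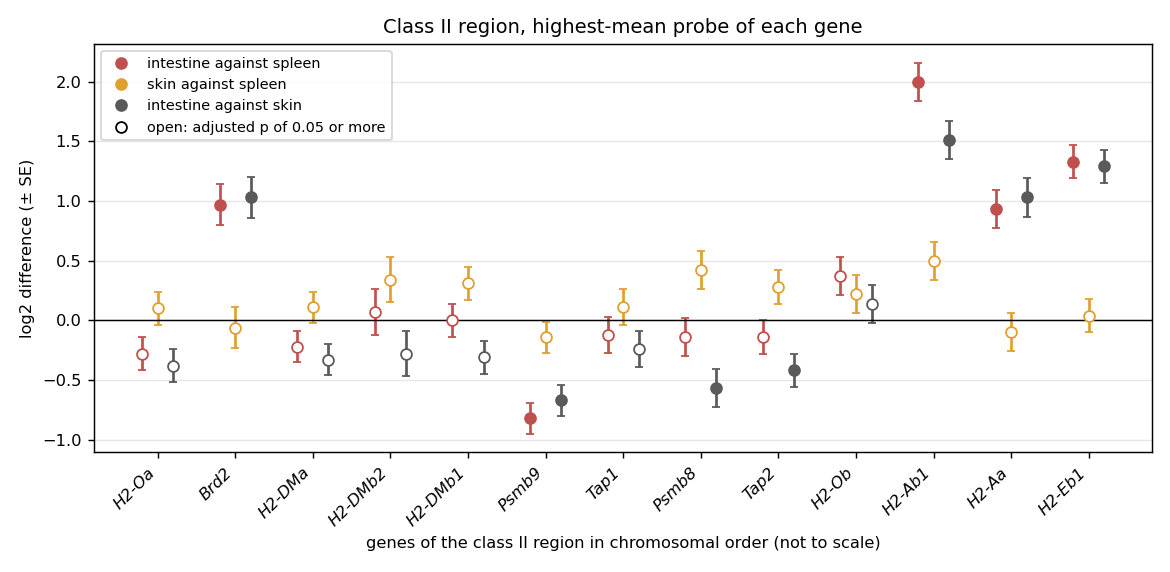
Log2 differences with their SE (limma) are shown for the brightest probe of 13 genes of the class II region in chromosomal order, not to scale. The intestine comparisons of H2-Ab1, H2-Aa and H2-Eb1, at the right end, lie between 0.93 and 2.0, with Brd2 at 0.97 and 1.03 as the other gene that was higher.

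The other class II genes on the array include H2-DMb2, a second beta chain of H2-DM, and H2-Oa and H2-Ob, whose products form H2-DO, an inhibitor of H2-DM. None of these 3 tested genes passed in any comparison at limma's adjusted p of 0.05. In intestine against spleen the differences were 0.07 ± 0.19 for H2-DMb2 (adjusted p = 0.792), -0.28 ± 0.14 for H2-Oa (0.114) and 0.37 ± 0.16 for H2-Ob (0.0786). The probes of H2-Ob disagreed, since the other had a difference of -0.48. The differences between skin and spleen were 0.34, 0.10 and 0.22.

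Endosomal processing genes, which cut antigen and the invariant chain, had 2 higher, 6 lower and 6 not passing among 14 tested in intestine against spleen, with a median of -0.33. Over all genes 48.2% were called, 20.5% higher and 27.8% lower, so a share of 8 of 14 called is near that of all genes. For skin against spleen, 12.3% of all genes were called higher and 10.8% lower. For intestine against skin the shares were 16% and 22.1%. The counts of every list below stand beside these shares. Ctsd, an aspartic protease, was lower with a difference of -1.27 ± 0.14 (adjusted p = 6.16e-05), with signals of 390 and 408 in intestine, 1345 and 1282 in skin, and 1159 and 1070 in spleen. The intestine arrays lay far below the others. Lamp2, a lysosomal membrane protein, was lower with -0.65 (adjusted p = 0.00401), while another of its probes had 0.21. Sppl2a, the membrane protease that removes the last stub of the invariant chain, was lower with -0.57 (adjusted p = 0.0163). Atp6v0d1, a subunit of the proton pump that acidifies endosomes, was higher with 1.26 ± 0.15 (adjusted p = 0.000121). Ctss, the protease known for the last cut of the invariant chain in dendritic cells and B cells, was chosen after its values were seen and had a difference of -0.18 (adjusted p = 0.321) at signals of 8.55 and 13.7 in intestine and 19.1 and 17 in spleen. Skin against spleen had 4 of the 14 higher and 2 lower, among them Ctsc with -0.80 and Ctsz with 0.72, and in intestine against skin 1 was higher and 4 lower. The balance between skin and spleen turned with the scaling, to 1 higher and 4 lower with the deposited one and 0 and 14 on signals before scaling, against 5 and 2 with median scaling.

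Factors that act on class II promoters or on Ciita had 5 higher, 5 lower and 6 not passing among 16 tested in intestine against spleen, with a median of -0.06. This too is near the 48.2% called over all genes. Irf8, an interferon regulatory factor of myeloid and B cells, was higher with 1.35 ± 0.18 (adjusted p = 0.000256), at signals of 1599 and 1935 in intestine, 647 and 749 in skin, and 633 and 823 in spleen. Intestine stood above the other tissues, which overlapped. Creb1, which binds next to the X box, was higher with 0.94 (adjusted p = 0.00161), while another of its probes had 0.26 and did not pass (adjusted p = 0.196). Irf2 and the acetyltransferase Ep300 were lower with -1.08 (adjusted p = 0.000468) and -0.98 (adjusted p = 0.000404). The 3 subunits of RFX, the factor of the X box, were chosen after their values were seen. Rfx5 had a difference of -0.35 (adjusted p = 0.0788), Rfxap of 0.61 (0.0205) and Rfxank of 0.08 (0.624). Another probe of Rfxap had 0.54 and did not pass (0.0595). Skin against spleen had 1 factor higher and 6 lower, and in intestine against skin 5 were higher and 1 lower.

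Interferon-gamma signalling, the best known inducer of Ciita outside professional antigen-presenting cells, had 7 higher, 3 lower and 2 not passing among 12 tested in intestine against spleen, with a median of 1.25. Of all genes, 20.5% were called higher and 27.8% lower in this comparison. Ifng itself had signals of 3829 and 2762 in intestine, 2036 and 1886 in skin, and 960 and 1471 in spleen. The tissues did not overlap, and the difference was 1.47 ± 0.22 in intestine against spleen (adjusted p = 0.000486) and 0.77 ± 0.22 in skin against spleen (adjusted p = 0.0349). The receptor chain Ifngr1 was higher in intestine than in spleen with 1.46 ± 0.17 (adjusted p = 0.000115), the kinase Jak2 with 2.20 ± 0.18 (adjusted p = 8.99e-06) and the feedback inhibitor Socs3 with 2.65 ± 0.23 (adjusted p = 1.47e-05). Another Jak2 probe had a difference of 0.40 that did not pass. Between skin and spleen 2 were higher and 2 lower, and in intestine against skin 8 were higher and 1 lower.

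In the list drawn up for the surface turnover of class II, Marchf1, the ubiquitin ligase whose action on class II Cd83 is known to oppose, was detected on none of the 6 arrays. The others are tetraspanins, whose bearing on class II was not tested. Of these, 1 was higher, 2 lower and 3 not passing among 6 tested in intestine against spleen. These calls together are near the 48.2% called over all genes. Cd81 was at least 2.43-fold lower in intestine than in spleen, where its signals were -1.92 and 3.04 in intestine and 46.8 and 54.9 in spleen (adjusted p = 2.7e-05). A fold is a bound of this kind where no array of the dimmer tissue detected the probe, whose level there was then set to the lowest detected signal or its own if higher. Cd63, a tetraspanin of the late endosome, was higher with 0.78 (adjusted p = 0.00183).

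Costimulatory and coinhibitory ligands, which antigen-presenting cells show beside class II, had 6 higher, 1 lower and 1 not passing among 8 tested in intestine against spleen, with a median of 0.84. The shares over all genes were 20.5% higher and 27.8% lower. Pdcd1lg2 and Cd274, the ligands of the inhibitory receptor PD-1, were higher with 2.59 ± 0.15 (adjusted p = 1.27e-06) and 2.49 ± 0.14 (adjusted p = 9.83e-07). The signals of Cd274 were 1797 and 1864 in intestine, 472 and 479 in skin, and 336 and 363 in spleen, and those of Pdcd1lg2 were 183 and 174 in intestine, 18.9 and 24.9 in skin, and 26.7 and 23 in spleen. Both were brightest on the intestine arrays, without overlap. Tnfsf9 and Tnfsf4, the ligands of 4-1BB and OX40, were higher with 1.42 (adjusted p = 0.000503) and 1.0 (adjusted p = 0.000569). Of the ligands of CD28, named after their values were seen, Cd86 was at least 1.23-fold lower in intestine than in spleen (adjusted p = 0.0016) and Cd80 was higher with 0.43 (adjusted p = 0.0335). Of the 8 ligands, 2 were higher and none lower in skin than in spleen, and in intestine against skin 4 were higher and 1 lower.

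NF-kB subunits and inhibitors, which take part in the induction of Cd83 in dendritic cells, were higher in intestine than in spleen for 11 of 11 tested, with a median of 2.30. The share called higher over all genes was 20.5%. Rel had signals of 384 and 220 in intestine, 17.7 and 21.4 in skin, and 10.4 and 12.2 in spleen, a difference of 3.62 ± 0.21 (adjusted p = 1.16e-06) in intestine against spleen. Tnfaip3, an inhibitor of the pathway, had 2.75 ± 0.22 (adjusted p = 8.22e-06), and the subunits Nfkb1 and Nfkb2 had 2.50 and 2.48 (adjusted p = 1.27e-06 and 8.69e-07). Only 1 of 11 was called in skin against spleen, which was Tnfaip3 with 1.40 (adjusted p = 0.00334), and in intestine against skin 11 of 11 were higher with a median of 1.96. The 11 of 11 in intestine against spleen held with the deposited scaling and with median scaling, and 8 of 11 were called higher on signals before scaling. For the other lists in intestine against spleen, the deposited scaling gave 1 higher and 8 lower of the endosomal genes, 3 and 8 of the promoter and Ciita factors, 7 and 4 of the interferon-gamma genes and 5 and 1 of the ligands. Median scaling gave 3 and 5, 6 and 6, 8 and 3, and 6 and 1. Signals before scaling, on which few probes of the array were higher in intestine, gave 0 and 13, 0 and 12, 2 and 5, and 3 and 2. In skin against spleen the NF-kB genes had 1 higher and 4 lower with the deposited scaling, 2 and 0 with median scaling, and 0 and 8 on signals before scaling.

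**Figure D4:**
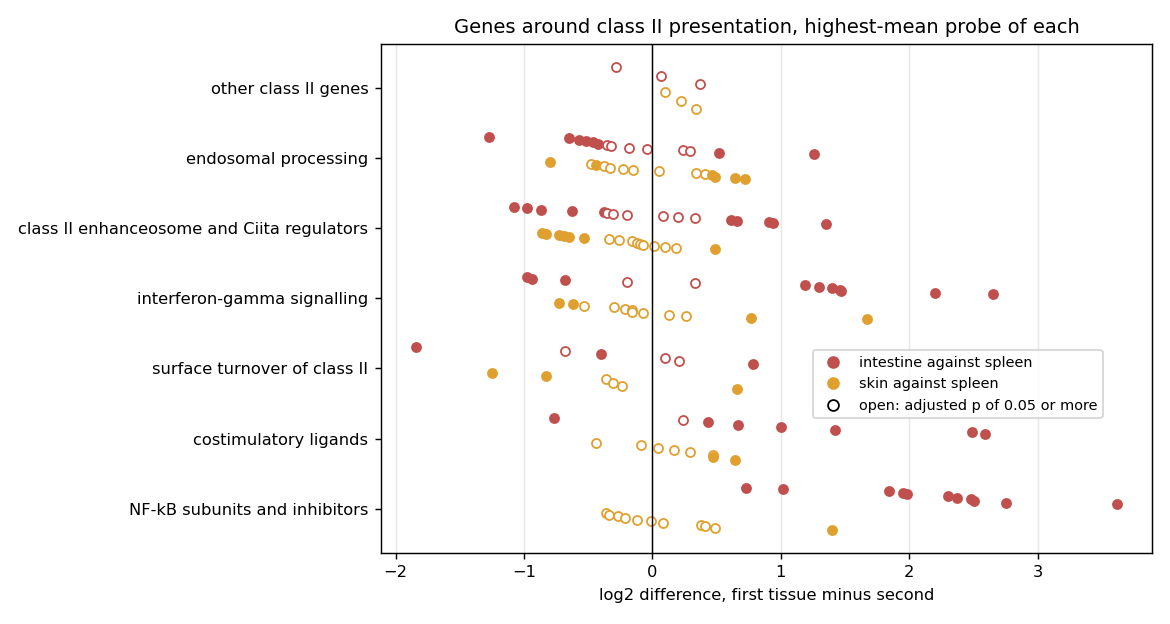
Each point is the log2 difference of the brightest probe of 1 gene in intestine against spleen or skin against spleen, grouped by function and filled where the adjusted p is under 0.05. The NF-kB genes of the intestine comparison lie between 0.73 and 3.62, and the endosomal processing genes between -1.27 and 1.26.

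Markers of other cell types that carry class II were read beside these values. For all marker lists in intestine against spleen, the shares over all genes were 20.5% called higher and 27.8% called lower. Of 16 macrophage and monocyte markers, 10 were detected on any array, and their summed signals over the list were 92.9 and 87.6 in intestine, 154 and 176 in skin, and 484 and 520 in spleen. A large part of the spleen sums came from Fcgr2b alone, with signals of 10 and 6.88 in intestine, 47.5 and 45.9 in skin, and 260 and 266 in spleen. Intestine had the lowest sums, with 8 of 9 tested markers lower than in spleen and none higher, and Csf1r, Cd14 and Fcgr1 were detected on no array. With the deposited scaling 8 were lower, with median scaling 6 and on signals before scaling 9, and none was higher in these settings. The part of macrophages in the class II values was not tested. Of 12 B cell markers, 5 were detected on any array, and Cd79a and Pax5 on none. Their sums were 36.5 and 73.3 in intestine, 38.3 and 34.9 in skin, and 58.1 and 59.5 in spleen, with intestine and spleen overlapping, and 1 of 5 tested was higher and 2 lower in intestine than in spleen, or 2 and 0 with median scaling and 0 and 3 on signals before scaling. Cd79b, a chain of the B cell receptor complex, was the higher one with 0.77 (adjusted p = 0.00754). The lower ones were Cd22 with -0.55 (adjusted p = 0.0274) and Ly86 with -0.47 (adjusted p = 0.0367).

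Of 12 dendritic cell markers on the array, 6 were detected on any array, with sums of 535 and 545 in intestine, 370 and 351 in skin, and 485 and 405 in spleen. Flt3, Xcr1, Clec9a, Cd209a, Cd207 and Fscn1 were detected on no array. Among 6 tested, 2 were higher, 1 lower and 3 not passing in intestine against spleen, which became 1 higher and 2 lower with the deposited scaling, 4 and 1 with median scaling, and 1 and 3 on signals before scaling. Ccr7, a chemokine receptor of mature dendritic cells and also of lymphocytes, was higher in intestine with 3.61 ± 0.14 (adjusted p = 2.11e-07), and so was Zbtb46 with 0.69 (adjusted p = 0.00623) and 2.28 at its other probe. Batf3 was the lower one with -0.98 (adjusted p = 0.00239). Itgax had -0.33 (adjusted p = 0.106) and was named after its value was seen. The part of dendritic cells in the class II and Cd83 values was not tested.

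Markers of ILC3 and LTi cells (lymphoid tissue inducer cells) had sums of 2205 and 2161 in intestine, 329 and 249 in skin, and 555 and 616 in spleen. By their brightest probes, 7 of 12 were detected on any array. Among 7 tested, 6 were higher in intestine than in spleen and none lower. With the deposited scaling 4 were higher, with median scaling 7 and on signals before scaling 2, and none was lower in these settings. Kit was higher with 2.41 ± 0.13 (adjusted p = 1.05e-06), Tnfsf11 at least 5.76-fold (adjusted p = 1.08e-05) and Il7r with 1.5 ± 0.19 (adjusted p = 0.00019). Ccr6 was detected on no array by its brightest probe and on 1 array by another. The sums of 9 NK cell markers were 11949 and 13617 in intestine, 20208 and 21499 in skin, and 21302 and 21849 in spleen, and 9 of 9 were lower in intestine than in spleen. The sums of 6 T cell markers were 856 and 1012 in intestine, 534 and 601 in skin, and 829 and 737 in spleen. Of 4 tested, 1 was higher and 1 lower in intestine than in spleen. Cd3g, a chain of the CD3 complex that the sort excluded at the surface, was higher with 2.35 ± 0.25 (adjusted p = 6.04e-05), at signals of 312 and 597 in intestine, 54.6 and 59.4 in skin, and 109 and 81.4 in spleen. Lat, an adaptor of T cell receptor signalling that NK cells also express, was lower with -0.42 (adjusted p = 0.0243). The part of a mixture of ILC3 and NK cells in the class II and Cd83 values was not tested.

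**Figure D5:**
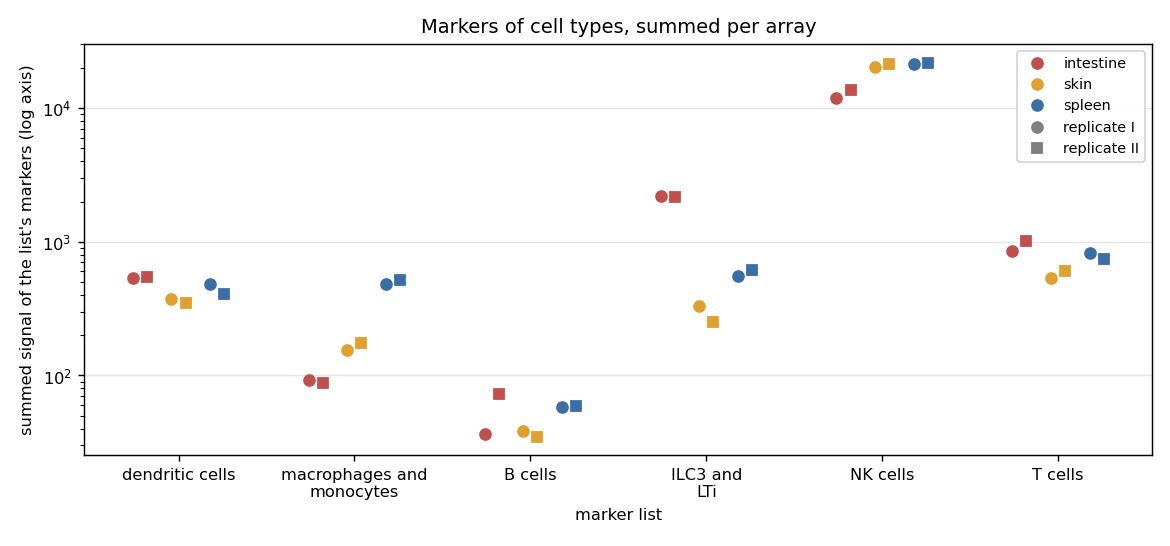
Summed deposited signals of the markers of each cell type are plotted per array on a log axis, with circles for replicate I and squares for replicate II. The macrophage sums are lowest in intestine (92.9 and 87.6) and highest in spleen (484 and 520), and the ILC3 and LTi sums are highest in intestine (2205 and 2161).

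The genes whose profile over the 6 arrays was most like that of H2-Ab1 (probe 1) and of Cd83 were found among 13455 genes by the root mean square difference of centred log2 values. For H2-Ab1 they were Tfip11 (0.102), Map1lc3a (0.111), AY078069 (0.114), 2410006H16Rik (0.12) and Hspa4l (0.125). Tfip11 had signals of 390 and 259 in intestine, 109 and 121 in skin, and 85.4 and 108 in spleen. For Cd83 they were Traf4 (0.065), Il21r (0.0764), Spsb1 (0.13), Arrdc4 (0.146) and Dot1l (0.156). Traf4 had signals of 921 and 809 in intestine, 69.5 and 77.2 in skin, and 59.6 and 54.7 in spleen, and Il21r 410 and 402 in intestine, 24.1 and 28 in skin, and 20.8 and 23.1 in spleen. No other member was among the nearest 5 of either gene.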

How the data were processed

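Extraction used the RNeasy Micro Kit and amplification with biotin labelling the Illumina TotalPrep kit, per the labels' protocols. BeadStudio 1.5.1.3 is named in the submitters' processing notes. The deposited tables give, per the file headers, an average bead intensity and a detection p-value for each of 46643 probes. By their values the intensities were background-subtracted and scaled to a mean of 83.1 per array. A series table holds the same intensities before scaling. No source used here describes how background, scaling or detection p-value were obtained.

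An offset of 16 was added (sums under 1 were set to 1), log2 taken, and the 6 arrays quantile normalized. The filter kept 18583 probes that both arrays of a tissue, in any of the 3, detected at p under 0.01. limma 3.58.1 (R 4.3.3) was fitted to the 6 arrays together, with tissue means as coefficients, leaving 3 residual degrees of freedom, with Benjamini-Hochberg adjustment and a threshold of 0.05. The fit was also run on simulated data with independent noise and few changed probes. Since many probes differ in the real arrays, that run does not bear on the calls given here. With 2 arrays per tissue, their number limits the precision, and no test for an outlying array was run.

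Symbols were matched to the RefSeq table (GRCm38.p6), of which 20147 probes carried a current symbol, 12968 an older one, 199 an ambiguous one, 11602 one not in the table and 1727 none. Lists use the probe with the highest mean for each gene. Members and lists were chosen with earlier results of these data known. The genes to name were all member probes, per list and comparison up to 4 called genes with the largest differences (of which the text gives part, and some are not reported here), all other class II genes, the 5 nearest profiles and the genes of the sort and deletion.

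Replicate numbers mark the slide, and the deviations of same-numbered arrays from their tissue means correlated at 0.11 (intestine and skin), 0.14 (intestine and spleen) and 0.19 (skin and spleen) over the kept probes. The alternatives were other scalings, offsets, filters and spread models, the slide as a block, 1 probe per gene and each array left out.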

Additional observations from a re-analysis of the deposited data

How the results depend on the processing

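The replicate block (slide) left 7, 2 and 7 member probes called in intestine against spleen, skin against spleen and intestine against skin, as without it, and changed no member's call. With each array left out in turn, 6 to 7, 0 to 3 and 7 to 8 were called. Taking members by their current symbol alone, chosen after seeing the data, left 4 of 6 called in intestine against spleen and 4 of 6 in intestine against skin. In skin against spleen 9 probes were called on signals before scaling, all of them lower where 78.9% of all probes were called lower, 1 with no detection filter and 1 with 1 probe per gene. The median difference of all probes in the 3 comparisons was -0.90, -1.09 and 0.06 on signals before scaling, -0.26, -0.15 and -0.15 with the deposited scaling, and 0.10, 0.07 and -0.02 with median scaling, against -0.07, -0.04 and -0.05 in the values reported. On signals before scaling, with those medians, the sign turned in intestine against spleen for H2-Aa (-0.25), H2-DMb1 (-0.98) and Cd74 probe 1 (-0.83), and in skin against spleen for H2-Ab1 probes 1 (-1.02) and 2 (-0.57), H2-Eb1 (-1.22), H2-DMa (-1.44), H2-DMb1 (-0.87) and Cd83 (-0.75). Relative to the median of all probes these were 0.65, -0.08 and 0.07, and 0.07, 0.52, -0.13, -0.35, 0.22 and 0.34. On the same signals H2-Ab1 probe 1 (0.72), H2-Ab1 probe 3 (0.34) and H2-Eb1 (0.11) lost their call in intestine against spleen, and H2-Aa (1.06) and Cd74 probe 1 (0.99) in intestine against skin. Other turns of sign were in differences that did not pass. With the deposited scaling these were H2-DMb1 in intestine against spleen (-0.33) and H2-Eb1 (-0.22) and H2-DMa (-0.16) in skin against spleen. With median scaling Cd74 probe 2 turned in skin against spleen (0.03). H2-DMb1 turned in intestine against spleen without the second spleen array (-0.06) or the first intestine array (-0.12), in a range of -0.12 to 0.12 over left-out arrays. In skin against spleen H2-Ab1 probe 3 turned without the second spleen (0.09) or skin array (0.15) and H2-Eb1 without the first spleen array (-0.01, in a range of -0.01 to 0.08), and Cd74 probe 2 turned in intestine against skin without the second intestine array (0.09). Leaving out arrays also made calls of probes at the edge. H2-Ab1 probe 1 was called in skin against spleen without either intestine array (0.49 each), and Cd74 probe 2 was called lower without the first intestine array in intestine against spleen (-0.87) and intestine against skin (-0.59). The cause of the other changes was not tested. Probes near background, both Ciita probes and Cd74 probe 2 among them, are limited by signal over background, which was highest on the spleen arrays.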
